A study of Homo sapiens with 41 samples.

Results

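The genes described here are 31 genes of cholesterol and fatty acid synthesis, measured by RNA sequencing in cancer cells with and without drugs that block their driving kinase. Members were chosen by name, as enzymes and regulators of these pathways, with earlier results of these data known. Each had to be listed in all 6 deposited expression tables with a mean of 10 or more normalised reads in the table. All 31 were listed and all 31 passed that minimum in every table, against 13451 to 14069 genes that passed it of up to 23368 listed. A normalised read count is a gene's read count divided by a size factor for its library.

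Cells build cholesterol from acetyl-CoA through mevalonate, isoprenoids, squalene and a series of sterol rings, and build fatty acids from the same acetyl-CoA. Most of these genes are under the control of the sterol regulatory element-binding proteins (SREBPs, encoded by SREBF1 and SREBF2), transcription factors held in the endoplasmic reticulum. When sterols are scarce, the escort protein SCAP carries an SREBP to the Golgi, where it is cut and released to the nucleus. When sterols are plentiful, the INSIG proteins hold SCAP back, and INSIG1 is itself an SREBP target. Dividing tumour cells need both products for membranes.

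The study compared drug with vehicle in 41 libraries of 15 groups. In culture, cells were switched to medium with 2% serum together with the drug or vehicle. A375 melanoma cells received vemurafenib, an inhibitor of mutant BRAF kinase, at 0.1 µM for 6 h or 48 h, with 3 libraries in each of the vehicle, 6 h and 48 h groups. Colo800 and UACC62 melanoma cells received vemurafenib at 1 µM for 48 h, with 2 libraries per group. H3122 lung adenocarcinoma cells received crizotinib, an inhibitor of ALK and MET kinases, at 0.3 µM for 48 h, with 2 libraries per group. A375 tumours were grown under the skin of mice that received vehicle (4 libraries) or 10 doses of vemurafenib at 75 mg/kg (4 libraries). A375R tumours, of cells named as a line apart from A375, were given the same doses or vehicle, as tumours of A375R cells alone and as tumours that the titles mark SR, read here as A375R mixed with A375 cells, with 3 libraries in each of the 4 groups. How long the vehicle cultures were kept, how A375R was made and the strain and age of the mice are not given in the sources used here. For tumours the labels describe recovery of RNA bound to tagged ribosomes, with the tag RPL10a in the A375R titles, so tumour values are of ribosome-bound RNA. The labels do not say whether replicates are separate cultures or mice, so the spread behind the p-values may be technical. In tumours, fewer cells of a type and less RNA per cell cannot be told apart.

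Promoter sequence is shown first because most members are known SREBP targets, and the SREBPs bind short sites near the starts of their target genes. RefSeq windows from 250 bases before to 50 after the start, on build GRCh38.p14, were found for 27 of the 31 members. These have 38 windows between them. ACAT2, FDFT1, SQLE and FASN had no window and were not searched. The motif TCACNCCAC, the core of the sterol regulatory element, was searched on both strands and stood in 1 of the 38 windows, that of SREBF2, and in 1.13% of all 35116 windows. The motif CCAAT, bound by NF-Y, a partner of the SREBPs, stood in 22 of the 38 windows (57.9%) and in 34.6% of all windows. The E-box CACGTG, which SREBPs also bind, stood in 3 of 38 windows (7.89%), those of LSS, INSIG1 and SCAP, against 7.26% of all. GGGCGG, bound by Sp1, another partner, stood in 33 of 38 windows (86.8%) against 45.0% of all. The windows of all genes were not limited to genes expressed in these cells, as the members are. The shares are therefore not like for like, and their differences were not tested. A match in these letters is not a measured binding site. The 4 motifs differ in their letters and were counted separately.

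The 200 bases before the start are given for 5 members whose values carry the results, 5′ to 3′ on the gene's own strand, with TCACNCCAC, CACGTG and CCAAT matches on either strand in capitals (a CCAAT on the other strand reads ATTGG). The capital stretches do not overlap. SREBF2 (chr22:41832905-41833104, plus strand) holds the only exact TCACNCCAC match in the windows searched, 133 bases before the start, and a CCAAT match 106 bases before it. Sites with other letters or outside the windows would be missed. INSIG1 (chr7:155297678-155297877, plus strand) holds the E-box 55 bases before the start and CCAAT 170 bases before it. HMGCS1 (chr5:43313413-43313612, minus strand) and STARD4 (chr5:111512536-111512735, minus strand) hold 2 CCAAT matches each. MYLIP (chr6:16128886-16129085, plus strand), which moved the other way from most members, also holds 2.
SREBF2: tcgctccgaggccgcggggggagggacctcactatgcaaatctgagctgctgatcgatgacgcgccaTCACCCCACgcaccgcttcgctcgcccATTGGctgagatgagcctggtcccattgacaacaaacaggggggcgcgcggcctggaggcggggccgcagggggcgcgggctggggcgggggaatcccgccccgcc
INSIG1: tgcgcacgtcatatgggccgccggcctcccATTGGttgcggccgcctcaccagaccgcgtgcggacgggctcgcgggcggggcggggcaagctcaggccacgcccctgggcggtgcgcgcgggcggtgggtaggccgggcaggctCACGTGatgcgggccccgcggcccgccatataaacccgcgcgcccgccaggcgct
HMGCS1: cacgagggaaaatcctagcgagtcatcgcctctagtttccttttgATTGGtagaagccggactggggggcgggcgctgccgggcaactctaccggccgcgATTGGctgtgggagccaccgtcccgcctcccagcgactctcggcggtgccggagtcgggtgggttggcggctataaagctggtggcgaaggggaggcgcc
STARD4: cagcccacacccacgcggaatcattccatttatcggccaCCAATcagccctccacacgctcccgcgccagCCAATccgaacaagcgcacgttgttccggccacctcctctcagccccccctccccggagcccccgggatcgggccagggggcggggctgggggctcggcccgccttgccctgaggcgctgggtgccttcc
MYLIP: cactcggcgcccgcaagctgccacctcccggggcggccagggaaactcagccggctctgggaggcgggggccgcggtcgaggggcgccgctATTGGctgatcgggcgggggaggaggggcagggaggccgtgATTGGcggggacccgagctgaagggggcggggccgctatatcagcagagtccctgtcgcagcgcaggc

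Between 14 and 27 of the 31 members were called lower after 48 h of drug in each of the 4 cell lines and 20 in A375 tumours, none passed the test after 6 h, and 1 of 31, MYLIP, passed it in each kind of A375R tumour. Called here means an adjusted p under 0.05 in limma, fitted on log2(normalised read count + 1) over all tested genes of a table with Benjamini-Hochberg adjustment. The log2 changes are on that scale and are drug minus vehicle, given ± their standard error.

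In A375 cells at 6 h, 0 members were called, and 1.07% of all tested genes were called higher and 3.33% lower. At 48 h, 14 members were called lower and 2 higher, against 25.6% of all genes lower and 24.3% higher. The median change of the 31 members was 0.10 at 6 h and -0.44 at 48 h. The 6 h median moved with single libraries, to 0.01 without vehicle replicate 1, 0.06 without vehicle replicate 2, 0.17 without vehicle replicate 3 and -6.98e-05 without 6 h replicate 3. These comparisons share the vehicle libraries, whose time in the 2% serum medium is not given.

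In Colo800, 25 members were called lower and 3 higher, where 37.3% of all genes were lower and 36.0% higher, and the median change was -1.05. In UACC62, 19 were lower and 4 higher, where the share of all genes was 29.6% lower and 26.9% higher, with a median of -0.94. In H3122 under crizotinib, 27 were lower and 1 higher, beside 24.0% of all genes lower and 22.1% higher, with a median of -0.91. Thus the direction was lopsided among the members in each line while the calls over all genes were near even. The median standard error over all genes was 0.076 in Colo800, 0.13 in UACC62, 0.11 in H3122 and 0.19 in A375. Smaller changes therefore passed in Colo800 than in A375, and counts of calls cannot be compared between lines. The members were chosen with earlier results of these data known, so their shared direction is not an independent test. In a list of 11 other sterol synthesis genes the median change was 0.13 in A375 at 48 h, -0.62 in Colo800, -0.22 in UACC62 and -0.17 in H3122.

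In A375 tumours, 20 members were called lower and 3 higher, beside 34.0% of all genes lower and 34.2% higher, with a median change of -0.69. In A375R tumours grown alone, 1 member was lower and 0 higher, beside 0.487% of all genes lower and 0.305% higher, with a median of -0.07. In the mixed A375R tumours the counts were again 1 lower and 0 higher, where 2.23% of all genes were lower and 1.24% higher, with a median of -0.17 that was -0.07 without mixed vehicle replicate 2. Few genes of any kind were called in A375R tumours, so the low counts there say little about these pathways in particular.

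**Figure D1:**
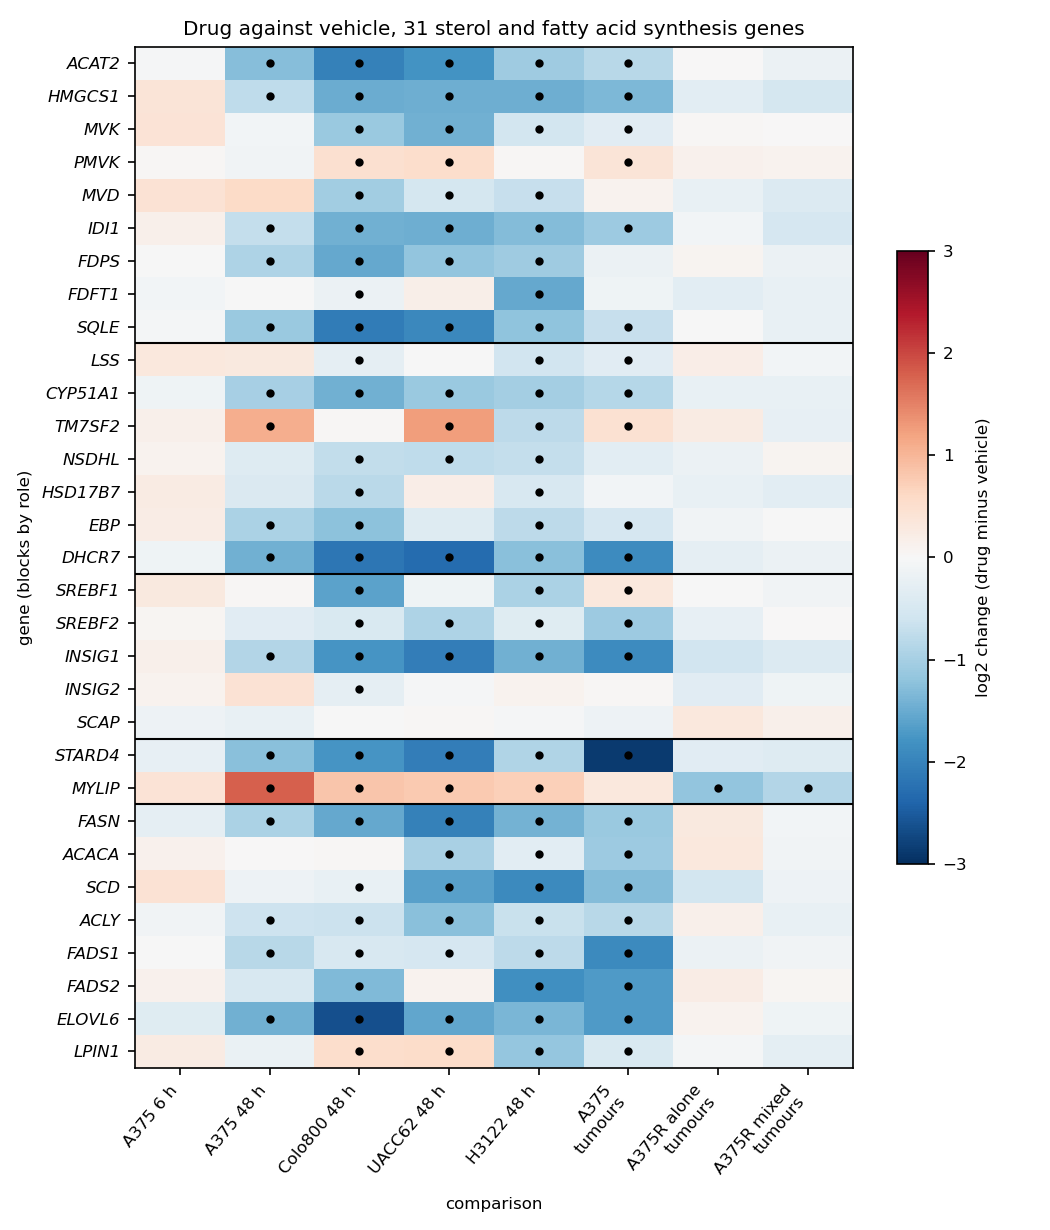
Log2 change of the 31 members (rows, in blocks by role: mevalonate and squalene enzymes, sterol ring enzymes, SREBP regulators, sterol handling, fatty acid and lipid synthesis) in the 8 comparisons of drug with vehicle (columns). Blue is lower and red higher under drug, and a black dot marks an adjusted p under 0.05. The columns for 48 h and for A375 tumours are mostly blue with dots, while the columns for 6 h and for A375R hold 0, 1 and 1 dots.

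Over the 4 lines at 48 h, 13 members were called lower in every line: ACAT2, HMGCS1, IDI1, FDPS, SQLE, CYP51A1, DHCR7, INSIG1, STARD4, FASN, ACLY, FADS1 and ELOVL6. Of the 11804 genes tested in all 4 tables, 9.48% were called lower in every line and 5.51% higher in every line. A further 6 were lower in 3 lines, 6 in 2 and 3 in 1. The 3 members lower in no line were PMVK, SCAP and MYLIP, and MYLIP was called higher in all 4. Of the 13, FDPS was the only one not called lower in A375 tumours.

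Recovered depth was 8063754 to 42843612 reads per library, deepest in A375R tumours. DUSP6 and SPRY4, feedback genes of the ERK pathway that both drugs act on, were called lower in every drug group of cells labelled A375, Colo800, UACC62 or H3122, while in A375R only SPRY4 in mixed tumours was, at -0.81 ± 0.13. The melanocyte markers TYR and DCT were listed at 0 in A375 tumours under vehicle, and the summed level of the 8 melanocyte markers was 1201 to 1777 there against 9261 to 10657 under vemurafenib. The 8 adipocyte markers, of cells that make fatty acids, summed to 96.2 to 162 in A375 tumours under vehicle and 138 to 161 under drug, with ADIPOQ and LEP at 0 in all. The 4 hepatocyte markers summed to 552 to 940.3 in A375 tumours under vehicle and 119 to 150.4 under drug, with none at 0 in every library of a group. Nearly all of that sum was SERPINA1, at a mean of 771 and 115, while ALB had a mean of 0.127 and 0.863. In UACC62 the adipocyte list summed to 2846 to 2955 under vehicle and 143 to 182 under drug, most of it LPL, with a mean of 2865 and 98.8, and LEP was at 0 in both groups. In A375R the 6 leukocyte markers, almost all of the sum CD68, summed to 7559.9 to 9746 under vehicle and 3801 to 5976 under drug in tumours of A375R alone, and were 3367 to 4992 and 5088 to 8277 in mixed tumours, with PTPRC at 0 in mixed tumours under vehicle. The 6 fibroblast markers in A375R, most of the sum COL1A1 and none at 0 in a whole group, summed to 1285 to 1540.4 under vehicle and 2527 to 3346 under drug alone, and to 1236 to 2079.9 and 2971 to 3212 mixed. In H3122 the 10 lung epithelium markers summed to 131844 to 154836 under vehicle and 84018 to 89009 under drug, with SFTPC at 0. Of the 8 marker lists, the summed levels of drug and vehicle did not overlap for 5 in A375 cells at 48 h, 7 in Colo800, 6 in UACC62, 7 in H3122, 4 in A375 tumours, 2 in A375R alone and 4 in mixed tumours. Small groups separate by chance more often than large ones, so these counts cannot be compared between settings with unequal numbers of libraries. The share of all genes that separated in this way is not given here. The part of the marker lists in the results was not tested.

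One library stood apart. Of the 3 A375 libraries at 48 h, replicate 1 had the lowest value for 31 of 31 members, where it was lowest for 44.1% of all tested genes. Replicate 1 was also the lowest for 18 members in the A375 vehicle group and for 20 in the 6 h group. Without it, 12 members were called lower and 3 higher at 48 h, 14 of the 16 calls remaining, and the median change was -0.27. In the mixed A375R tumours under vehicle, replicate 2 was highest for 24 of 31 members, against 35.7% of all genes.

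**Figure D2:**
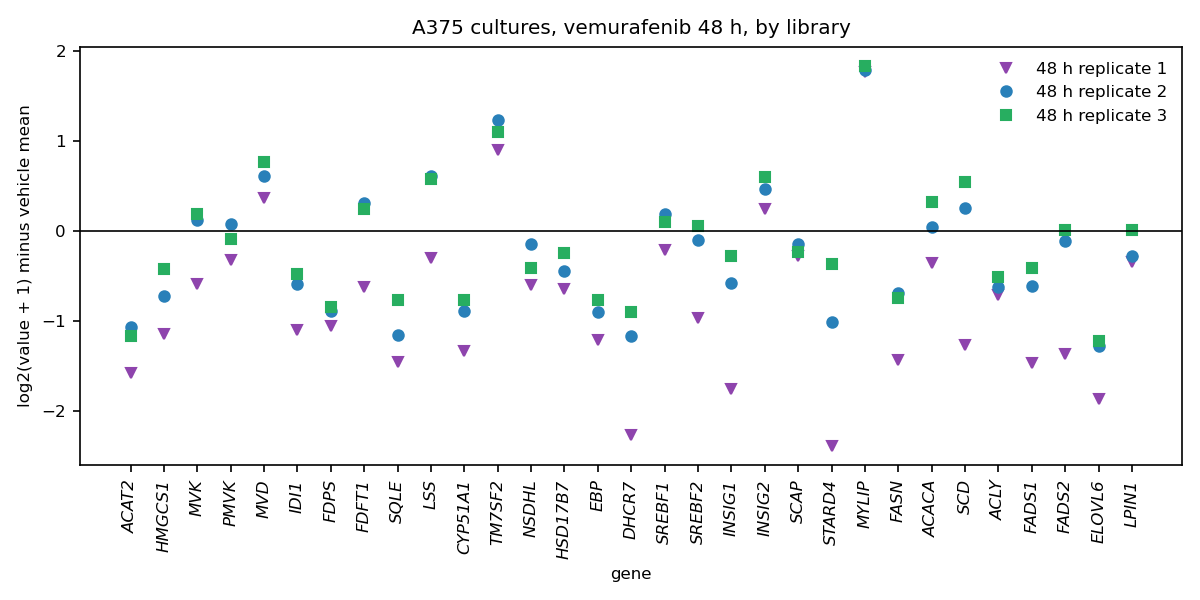
Each A375 library at 48 h of vemurafenib, as log2(normalised read count + 1) minus the mean of the 3 vehicle libraries (y axis), for each member (x axis). Triangles (replicate 1) lie below circles and squares (replicates 2 and 3) for all 31 members, with the widest gaps for SCD, STARD4, FADS2 and INSIG1, and all 3 libraries lie above 0 for MYLIP, TM7SF2, INSIG2 and MVD.

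The first group holds 9 mevalonate and squalene enzymes. Of these, 5 were lower and 0 higher in A375 at 48 h, 8 lower and 1 higher in Colo800, 7 lower and 1 higher in UACC62, 8 lower and 0 higher in H3122, and 5 lower and 1 higher in A375 tumours. The one that was higher was PMVK each time.

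HMGCS1, which joins acetyl-CoA to acetoacetyl-CoA ahead of mevalonate, had normalised read counts of 925, 908 and 1014 in the A375 vehicle libraries, 929, 1269 and 1615 at 6 h and 429, 577 and 710.0 at 48 h. The 6 h libraries lay at or above the vehicle range with overlap, and the 48 h libraries all lay below it. The change was 0.39 ± 0.21 at 6 h (adjusted p = 0.40) and -0.76 ± 0.21 at 48 h (adjusted p = 0.013). In Colo800 the counts were 6384 and 5974 under vehicle and 2177 and 2212 under drug, in UACC62 1745 and 1709 against 624 and 635, and in H3122 8489 and 7996 against 2848 and 3144, vehicle first. No drug library reached a vehicle library in these 3 lines, and HMGCS1 was 2.81-fold lower, 2.74-fold lower and 2.75-fold lower. In A375 tumours it was 964, 1048, 1179 and 1219.7 under vehicle and 483, 422, 432 and 394 under vemurafenib, again without overlap, a change of -1.34 ± 0.09 (adjusted p = 1.44e-09).

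ACAT2, the thiolase that makes acetoacetyl-CoA, was among the 3 largest falls in A375 at 48 h, from 925, 845 and 1110.3 to 319, 455 and 426, with no overlap and a change of -1.27 ± 0.16 (adjusted p = 9.21e-05). Its change was -2.03 in Colo800, -1.80 in UACC62, -1.06 in H3122 and -0.83 in A375 tumours. SQLE, which oxidises squalene and is a rate-limiting step, was among the largest falls in Colo800, from 2332 and 2298 to 528 and 550.3, a 4.29-fold lower level (adjusted p = 4.49e-17). SQLE had a log2 change of -1.12 in A375 at 48 h, -1.94 in UACC62, -1.21 in H3122 and -0.69 in A375 tumours, all called. IDI1, which isomerises isopentenyl diphosphate, was called lower in the same 5 settings, at a log2 change of -1.09 in tumours and between -0.72 (A375) and -1.46 (UACC62) in culture.

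FDPS, which makes farnesyl diphosphate, fell in all 4 lines, at a log2 change of -0.93 in A375, -1.54 in Colo800, -1.19 in UACC62 and -1.08 in H3122. In A375 tumours its change of -0.18 ± 0.08 did not pass (adjusted p = 0.056), whereas edgeR (adjusted p = 0.045) and limma after quantile normalisation (-0.22, adjusted p = 0.020) called it. MVK, which phosphorylates mevalonate, and MVD, which decarboxylates its diphosphate, fell in Colo800 (-1.11 and -1.05), UACC62 (-1.43 and -0.53) and H3122 (-0.56 and -0.69). In A375 at 48 h they had a log2 change of -0.09 ± 0.23 and 0.58 ± 0.30 and neither passed, although MVD was called with the replicate number as a block (0.58, adjusted p = 0.011 in limma) and with the compared groups alone (adjusted p = 0.043). In tumours only MVK passed, at -0.34. The MVK tumour call was lost without vehicle replicate 2 (-0.28, adjusted p = 0.059 in limma), vehicle replicate 4 (adjusted p = 0.056) or vemurafenib replicate 3 (adjusted p = 0.063), and the MVD call in UACC62 without vehicle replicate 1 (-0.52, adjusted p = 0.071) or 2 (-0.53, adjusted p = 0.065).

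FDFT1, the squalene synthase that commits farnesyl units to sterols, was among the 3 largest falls in H3122, from 4978 and 5513 to 1841 and 1795, a change of -1.53 ± 0.08 (adjusted p = 7.47e-08). In the melanoma lines its change was -0.02 ± 0.24 in A375 at 48 h, -0.18 ± 0.04 in Colo800 and 0.17 ± 0.09 in UACC62, and the small Colo800 change was called. With quantile normalisation the Colo800 change was -0.01 (adjusted p = 0.80). The difference in FDFT1 between H3122 and the melanoma lines was not tested, since the tables were normalised separately.

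PMVK, phosphomevalonate kinase, went the other way. It was 328 and 309 under vehicle and 444 and 444 under vemurafenib in Colo800, and went from 277 and 313 to 500.0 and 367 in UACC62. In A375 tumours it was 1151, 1104, 1159.8 and 1256 under vehicle and 1536, 1496, 1607 and 1438 under vemurafenib. The groups did not overlap in any of the 3, and the changes were 0.48 ± 0.08, 0.54 ± 0.16 and 0.38 ± 0.07, all called. The UACC62 call was lost without vehicle replicate 1, at 0.45 (adjusted p = 0.13 in limma). In A375 culture at 48 h and in H3122, PMVK had a log2 change of -0.11 ± 0.20 and 0.03 ± 0.12 and did not pass.

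**Figure D3:**
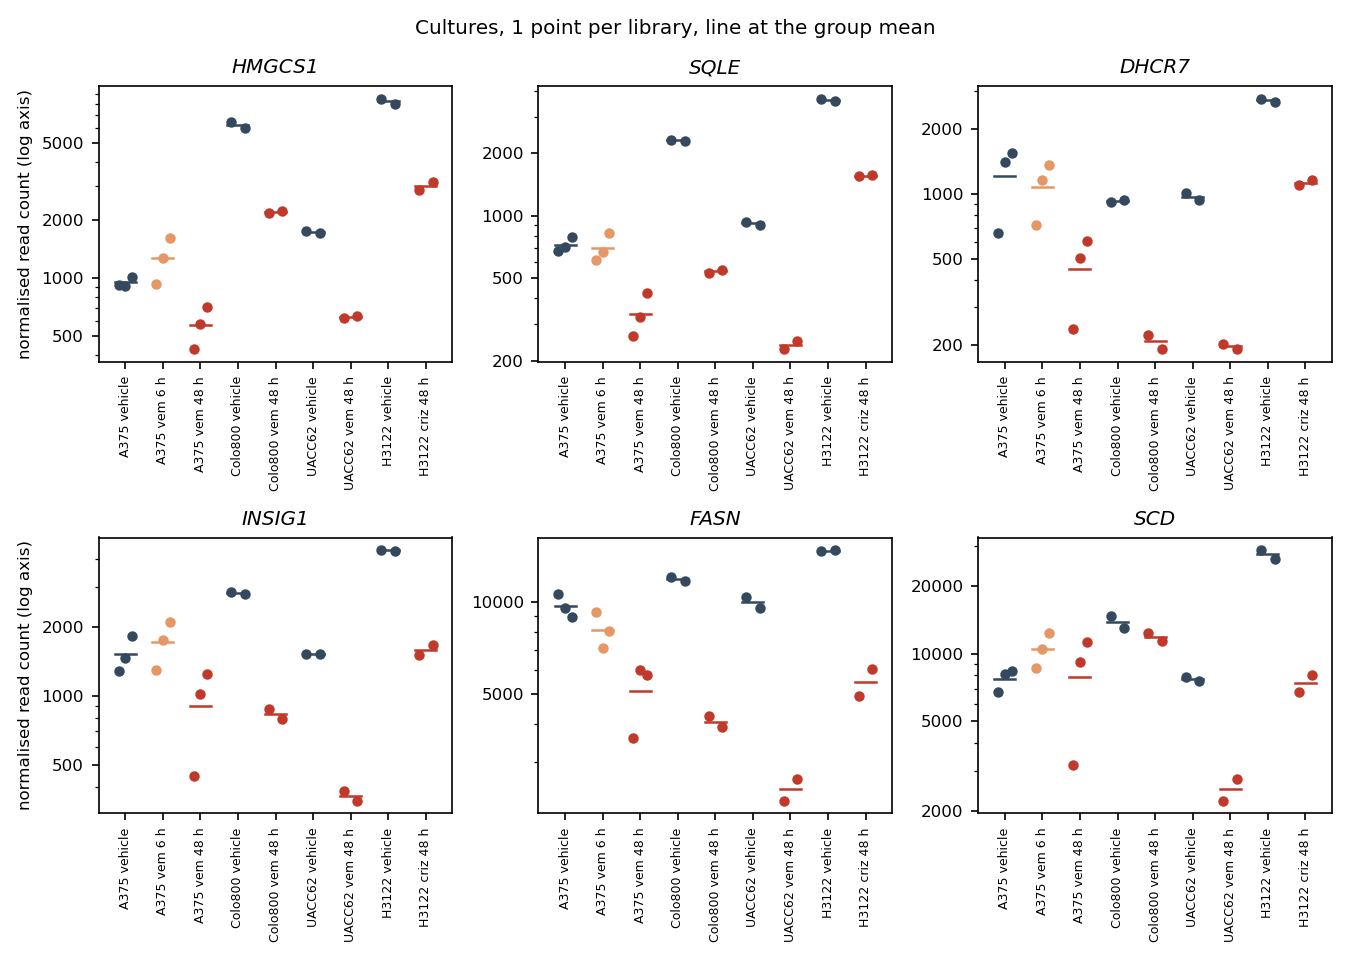
Normalised read counts (log axis) of 6 members in the 9 culture groups (x axis), with 1 point per library and a line at the mean of the group. Tables of the 4 lines were normalised separately. The drug points at 48 h lie below the vehicle points of the same line for HMGCS1, SQLE, DHCR7, INSIG1 and FASN. For SCD the A375 points at 48 h run from 3211 to 11283, across the vehicle range. The A375 points at 6 h overlap those of vehicle except for SCD, where all lie above vehicle.

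The second group is 7 sterol ring enzymes, which turn the folded squalene into cholesterol. In A375 at 48 h, 3 were lower and 1 higher, in Colo800 6 lower and 0 higher, in UACC62 3 lower and 1 higher, in H3122 7 lower and 0 higher, and in A375 tumours 4 lower and 1 higher.

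DHCR7, which makes the final double-bond reduction to cholesterol, was among the 3 largest falls in all 3 melanoma lines. Its counts in A375 were 664, 1414 and 1563 under vehicle and 237, 508 and 611 at 48 h. Replicate 1 was low in both groups, the groups did not overlap, and the change was -1.44 ± 0.40 (adjusted p = 0.012). In Colo800 the counts went from 917 and 945 to 224 and 193 and in UACC62 from 1010.0 and 939 to 203 and 192, so that drug libraries were 4.47-fold lower and 4.92-fold lower. In H3122 and in A375 tumours the changes were -1.26 ± 0.08 and -1.88 ± 0.12, both called.

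CYP51A1, the lanosterol 14-alpha-demethylase, fell in all 4 lines, at a log2 change of -0.99 in A375, -1.45 in Colo800, -1.12 in UACC62 and -1.01 in H3122, and at a log2 change of -0.86 in tumours. EBP, which shifts the ring double bond, fell, with a log2 change of -0.96 in A375, -1.23 in Colo800, -0.78 in H3122 and -0.49 in tumours. In UACC62 its -0.39 ± 0.15 narrowly missed the threshold (adjusted p = 0.052) and passed with the replicate block (adjusted p = 0.016 in limma). NSDHL and HSD17B7, which remove the methyl groups at carbon C-4 together with other enzymes, were called in 3 lines (-0.73, -0.75 and -0.72 in Colo800, UACC62 and H3122) and in 2 (-0.81 and -0.47 in Colo800 and H3122), and neither in tumours. In A375 at 48 h the replicate block gave calls for NSDHL (-0.38, adjusted p = 0.030 in limma) and HSD17B7 (-0.44, adjusted p = 0.013). There HSD17B7 was also called in DESeq2 (adjusted p = 0.047) and after quantile normalisation (adjusted p = 0.043 in limma), and in tumours NSDHL was called in DESeq2 (-0.33, adjusted p = 0.041) and edgeR (adjusted p = 0.034). The HSD17B7 call in H3122 was lost without crizotinib replicate 1 (-0.42, adjusted p = 0.058 in limma). LSS, the cyclase that folds squalene epoxide into lanosterol, fell, with a log2 change of -0.27 in Colo800, -0.57 in H3122 and -0.34 in tumours, and in A375 and UACC62 it changed by 0.30 ± 0.27 and -0.01 ± 0.10 without passing.

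TM7SF2, a sterol C14-reductase, differed from the rest of the ring enzymes. It was 84.0, 168 and 101 under vehicle and 211, 265 and 243 at 48 h in A375, and went from 34.2 and 32.0 to 90.1 and 71.9 in UACC62. Both rises were called, at 1.08 ± 0.24 and 1.26 ± 0.21, with no overlap of groups. In H3122 it fell, from 1006 and 1114 to 612 and 615, at a log2 change of -0.79 ± 0.09 (adjusted p = 3.59e-05). In A375 tumours the rise of 0.45 ± 0.15 was called although the groups overlapped, with 165, 141, 207 and 256 under vehicle and 256, 246, 268 and 253 under vemurafenib. That tumour call was lost without vehicle replicate 2 (0.31, adjusted p = 0.052 in limma). In Colo800 its change was 0.04 ± 0.15 and was not called.

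The third group is 5 SREBP regulators. In A375 at 48 h 1 was lower, in Colo800 4, in UACC62 2 and in H3122 3, with 0 higher in each. In A375 tumours 2 were lower and 1 higher.

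INSIG1, the sterol-dependent brake on SREBP, was 1293, 1472 and 1831 in A375 under vehicle, 1296, 1767 and 2111 at 6 h and 448, 1020.2 and 1250.0 at 48 h. All 48 h libraries were under the vehicle range, with replicate 1 far below the other two, and the change was -0.87 ± 0.33 (adjusted p = 0.047). Without that library the change was -0.42 (adjusted p = 0.13 in limma), and it missed the threshold without any 1 of the vehicle libraries too. The call was also lost in edgeR (-0.74, adjusted p = 0.073), and in limma after quantile normalisation (-0.76, adjusted p = 0.077), with no filter (adjusted p = 0.051) and with the compared groups alone (adjusted p = 0.052). It was made in DESeq2 (adjusted p = 0.040) and with the replicate block (adjusted p = 0.0013 in limma). In Colo800 INSIG1 went from 2855 and 2790.0 to 874 and 795, in UACC62 from 1534 and 1523 to 382 and 349 and in H3122 from 4358 and 4333 to 1517 and 1676. These groups lay far apart, with levels 3.38-fold lower, 4.18-fold lower and 2.72-fold lower. In A375 tumours it was 1148, 1142, 1191 and 1291 under vehicle and 322, 339, 322 and 296 under vemurafenib, a 3.72-fold lower level (adjusted p = 2.85e-12) with no overlap.

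INSIG2, the related brake, was called once, at -0.26 ± 0.09 in Colo800, a call lost without vehicle replicate 2 (-0.19, adjusted p = 0.14 in limma) or vemurafenib replicate 1 (-0.18, adjusted p = 0.15), in DESeq2 (adjusted p = 0.11), and in limma with no filter (adjusted p = 0.058) and after quantile normalisation (-0.17, adjusted p = 0.10). It was 0.44 ± 0.17 in A375 at 48 h (adjusted p = 0.051). That A375 rise was called with the replicate block (adjusted p = 0.025 in limma), in edgeR (adjusted p = 0.044), in DESeq2 (adjusted p = 0.038) and at a filter of 50 (adjusted p = 0.048 in limma). SCAP, the escort protein, was called in none of the 12 comparisons and its changes against vehicle ran from -0.21 (A375 at 48 h) to 0.31 (A375R alone).

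SREBF2, which encodes the SREBP most tied to cholesterol genes, was 1966, 2824 and 2123 in A375 under vehicle, 2121, 2442 and 2611 at 6 h and 1167, 2121 and 2366 at 48 h, groups that overlapped, with no call (0.07 ± 0.24 at 6 h and -0.34 ± 0.24 at 48 h). It was 5421 and 5301 against 4040.2 and 3805 in Colo800, 2861 and 2728 against 1347 and 1579.5 in UACC62 and 6801 and 6003 against 4810.1 and 5169 in H3122, vehicle first. The drug libraries were lower without overlap in each, at a log2 change of -0.45 ± 0.04, -0.94 ± 0.11 and -0.36 ± 0.09, all called. The H3122 call was lost without crizotinib replicate 1 (-0.31, adjusted p = 0.13 in limma) and after quantile normalisation (-0.22, adjusted p = 0.068). In A375 tumours SREBF2 was 1121, 1239, 1484 and 1185 under vehicle and 463, 620.3, 615 and 668 under vemurafenib, and fell by 1.09 ± 0.11 on the log2 scale (adjusted p = 1.84e-07).

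SREBF1, whose products drive fatty acid genes above all, behaved differently from line to line. It was 3564, 3228 and 3841 in A375 under vehicle, 4415, 4414 and 4230.5 at 6 h and 3059, 4038 and 3791 at 48 h. The 6 h libraries lay above the vehicle range but the change of 0.30 ± 0.12 was not called (adjusted p = 0.24), and at 48 h it was 0.03 ± 0.12. In Colo800 it fell from 1688 and 1675 to 569 and 542, 3.02-fold lower, and in H3122 from 7914 and 8263 to 4022 and 4337, 1.94-fold lower. In UACC62 it went from 2292 and 2058 to 2007 and 1970.2, not called (-0.13 ± 0.10). In A375 tumours SREBF1 was higher under vemurafenib, at 1016, 1095, 1141 and 980.4 against 835, 831, 782 and 932 under vehicle, by 0.32 ± 0.08 (adjusted p = 0.0017), with no overlap.

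Of the pair of sterol-handling genes, STARD4 and MYLIP moved apart. STARD4, a carrier of cholesterol between membranes, was 253, 403 and 317 in A375 under vehicle and 60.4, 158 and 247 at 48 h. Every 48 h library was below every vehicle library and replicate 1 was lowest by far, the change being -1.25 ± 0.43 (adjusted p = 0.032). Without replicate 1 at 48 h it was -0.69 (adjusted p = 0.087 in limma), and the call was also lost without vehicle replicate 2 (-1.08, adjusted p = 0.11) or 3 (-1.25, adjusted p = 0.067) and in edgeR (-1.06, adjusted p = 0.053). In UACC62 STARD4 went from 346 and 341 to 68.3 and 94.9, 4.22-fold lower. Its largest fall was in A375 tumours, from 261, 291, 367 and 263 to 36.3, 49.7, 36.9 and 36.0, which is 7.28-fold lower (adjusted p = 4.78e-11). In Colo800 and H3122 the changes were -1.77 ± 0.09 and -0.91 ± 0.13, both called.

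MYLIP encodes a ubiquitin ligase, also named IDOL, that sends lipoprotein receptors for degradation and is a target of the sterol-sensing LXR receptors. In A375 it was 167, 179 and 184 under vehicle, 201, 285 and 226 at 6 h and 603, 611 and 632 at 48 h. The 6 h and 48 h libraries all lay above vehicle, and the changes were 0.41 ± 0.15 (adjusted p = 0.17, not called) and 1.79 ± 0.15 (adjusted p = 8.72e-06), the latter 3.47-fold higher. In Colo800 it rose from 207 and 207 to 356 and 387, in UACC62 from 322 and 310.4 to 515 and 573 and in H3122 from 340.3 and 355 to 534 and 609. No groups overlapped there, and the changes of 0.84 ± 0.09, 0.78 ± 0.12 and 0.71 ± 0.11 were called. In A375 tumours it was 580.5, 417, 515 and 495 under vehicle and 455, 616, 852 and 603 under vemurafenib, overlapping, and did not pass (0.31 ± 0.15, adjusted p = 0.072). DESeq2 called that tumour change (adjusted p = 0.044).

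**Figure D4:**
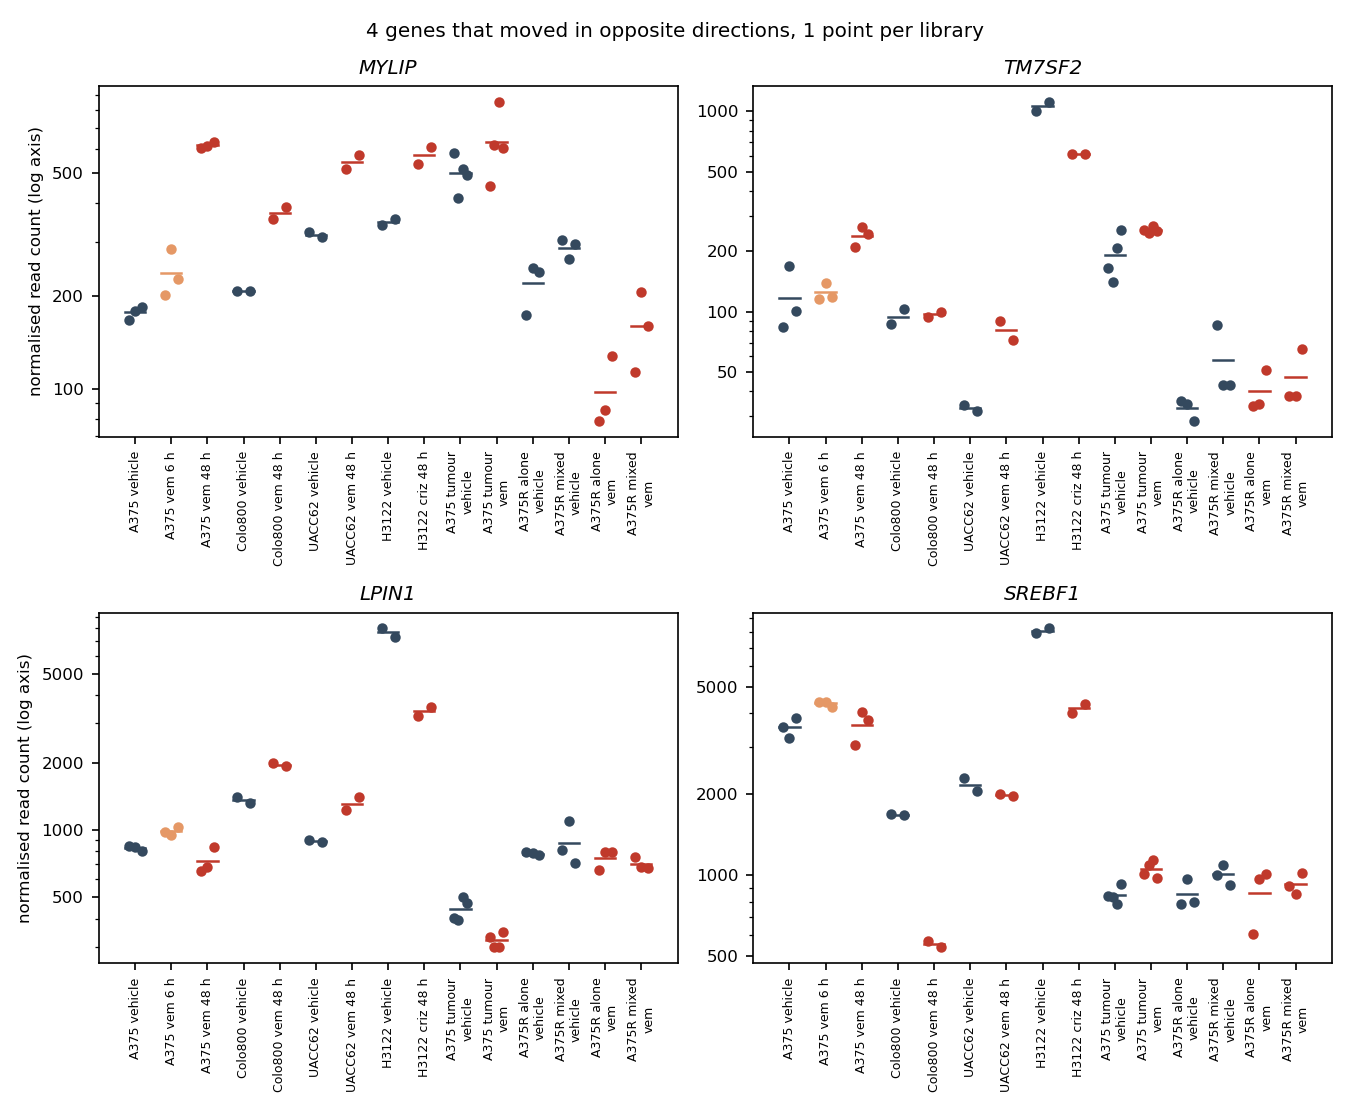
Normalised read counts (log axis) of MYLIP, TM7SF2, LPIN1 and SREBF1 in all 15 groups (x axis), with 1 point per library and a line at the mean of the group. Tables were normalised separately, so only groups of 1 table can be compared. MYLIP points are above vehicle at 48 h in all 4 lines and below vehicle in both kinds of A375R tumour, and TM7SF2 is above vehicle in A375 and UACC62 and below it in H3122.

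The fifth group holds 8 genes of fatty acid and lipid synthesis. In A375 at 48 h 4 were lower and 0 higher, in Colo800 6 lower and 1 higher, in UACC62 6 lower and 1 higher, in H3122 8 lower and 0 higher and in A375 tumours 8 lower and 0 higher. The one higher member was LPIN1 in both lines.

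FASN, the fatty acid synthase, was 10604, 9569.6 and 8946 in A375 under vehicle, 9272, 7061 and 8081 at 6 h and 3593, 6009 and 5804 at 48 h. The 6 h group overlapped vehicle (-0.26 ± 0.19, not called), the 48 h group was below it, and the change at 48 h was -0.95 ± 0.19 (adjusted p = 0.0020). It went from 12087 and 11705 to 4249.9 and 3909 in Colo800, from 10372 and 9595 to 2254 and 2649 in UACC62 and from 14640.4 and 14792 to 4927 and 6060.3 in H3122. The levels under drug were 2.92-fold lower, 4.08-fold lower and 2.69-fold lower, with no overlap. In A375 tumours FASN was 2226, 2108, 2272 and 2607 under vehicle and 982, 1076, 1034 and 1139.9 under vemurafenib, 2.17-fold lower (adjusted p = 2.39e-09).

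SCD, which puts the first double bond in a fatty acid, differed between lines. In A375 it was 6776, 8103 and 8349.7 under vehicle, 8662, 10456 and 12335 at 6 h and 3211, 9209 and 11283 at 48 h. All 6 h libraries lay above the vehicle libraries. At 48 h replicate 1 was below all vehicle libraries and replicates 2 and 3 were above them. SCD was not called at either time (0.43 ± 0.37 at 6 h and -0.15 ± 0.37 at 48 h). In Colo800 it went from 14705 and 12951 to 12355 and 11403, a small called fall of 0.22 ± 0.05 on the log2 scale that DESeq2 did not call (adjusted p = 0.070) and that became 0.0035 (adjusted p = 0.95 in limma) with quantile normalisation. In UACC62 it fell from 7905 and 7546 to 2227 and 2778 and in H3122 from 28845 and 26266 to 6721 and 8049, levels 3.10-fold lower and 3.74-fold lower without overlap. In A375 tumours SCD was 3313, 3219, 3728 and 3617 under vehicle and 1433, 1397, 1413 and 1415 under vemurafenib, 2.45-fold lower (adjusted p = 7.30e-11).

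ELOVL6, which lengthens saturated fatty acids, had the largest fall of any member in A375 at 48 h and in Colo800. It went from 1061, 1034 and 926 to 275, 414 and 433 in A375 and from 402 and 382 to 67.8 and 56.6 in Colo800, without overlap. The changes were -1.45 ± 0.18 (adjusted p = 8.09e-05) and -2.64 ± 0.12 (adjusted p = 8.67e-13), and those in UACC62, H3122 and A375 tumours were -1.55, -1.37 and -1.70, all called. At 6 h in A375 its 879, 786 and 683 were already under the vehicle range, though -0.37 ± 0.18 did not pass (adjusted p = 0.32).

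FADS1 and FADS2, the desaturases of polyunsaturated fatty acids, fell steeply in A375 tumours. FADS1 was 2423, 2546, 3082 and 2490.4 under vehicle and 593, 757, 738 and 712 under vemurafenib, 3.76-fold lower (adjusted p = 2.17e-11). FADS2 had a log2 change of -1.70 ± 0.11 there. FADS2 was also among the largest falls in H3122, from 6065 and 6386 to 1695 and 1769, 3.59-fold lower, and it fell, with a log2 change of -1.32 in Colo800. It did not pass in A375 at 48 h (-0.49 ± 0.29) or UACC62 (0.10 ± 0.15), whereas FADS1 fell in all 4 lines, at a log2 change of -0.82 in A375, -0.47 in Colo800, -0.50 in UACC62 and -0.79 in H3122. The FADS1 call was lost in A375 without vehicle replicate 2 (-0.68, adjusted p = 0.072) and in UACC62 without vehicle replicate 2 (-0.46, adjusted p = 0.10), both in limma.

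ACLY, which makes cytosolic acetyl-CoA from citrate, fell in all 4 lines, at a log2 change of -0.61 in A375, -0.65 in Colo800, -1.26 in UACC62 and -0.67 in H3122, and at a log2 change of -0.82 in tumours. ACACA, the carboxylase that makes malonyl-CoA, fell in UACC62 (-0.98), H3122 (-0.32) and tumours (-1.08), and changed by 0.01 ± 0.17 in A375 at 48 h and 0.03 ± 0.06 in Colo800. The ACACA call in H3122 was lost without crizotinib replicate 1 (-0.22, adjusted p = 0.27 in limma) or vehicle replicate 1 (-0.21, adjusted p = 0.055), with no filter (adjusted p = 0.098) and after quantile normalisation (-0.17, adjusted p = 0.19).

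LPIN1, a phosphatidate phosphatase of glycerolipid synthesis, moved in both directions. It rose from 1406 and 1319 to 1984 and 1931 in Colo800 and from 904 and 881 to 1221 and 1395 in UACC62, by 0.52 ± 0.05 and 0.55 ± 0.11. It fell from 7968 and 7321 to 3239 and 3551 in H3122 and from 404, 396, 501 and 470.1 to 332, 299, 298 and 349.9 in A375 tumours, by 1.17 ± 0.09 and 0.46 ± 0.10 on the log2 scale. All 4 changes were called and none of these groups overlapped. The UACC62 call was lost without vehicle replicate 2 (0.53, adjusted p = 0.051 in limma). In A375 at 48 h it was -0.20 ± 0.12, not called.

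The comparison of 48 h with 6 h in A375 shares libraries with both of those above. The 48 h cells also spent longer in 2% serum medium, so time in drug and in that medium cannot be told apart. In this comparison 15 members were called lower and 2 higher, beside 19.7% of all genes lower and 19.6% higher. The largest falls were DHCR7 at -1.32 ± 0.40, ACAT2 at -1.22 ± 0.16 and EBP at -1.18 ± 0.20, and the members that rose were TM7SF2 at 0.94 ± 0.24 and MYLIP at 1.39 ± 0.15. The DHCR7 call was lost without 48 h replicate 1 (-0.91, adjusted p = 0.080 in limma), 6 h replicate 2 (-1.24, adjusted p = 0.068) or 6 h replicate 3 (-1.12, adjusted p = 0.075). INSIG1 and FADS1 were lost without any of the same 3 libraries, with adjusted p from 0.059 to 0.093 in limma. CYP51A1 was lost without 48 h replicate 1 or 6 h replicate 3 (adjusted p = 0.055 in each), and FASN without 6 h replicate 1 (adjusted p = 0.052). HSD17B7 and LPIN1 were called lower here (-0.68 and -0.45) though not against vehicle. With the replicate number as a block, 18 were lower and 2 higher. MVK (-0.49, adjusted p = 0.029) and NSDHL (-0.49, adjusted p = 0.012) passed in that fit, and STARD4 passed at -0.999 (adjusted p = 0.0066 in limma), having missed without it (adjusted p = 0.090). At 6 h against vehicle, 2 of 31 members had an unadjusted p under 0.05 in limma, beside 2401 of 13816 tested genes. With the replicate block 7 members did and 0 were called, where 1462 genes were called in place of 608. At 6 h edgeR and DESeq2 called 0 members, and 3 had an unadjusted p under 0.05 in each.

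**Figure D5:**
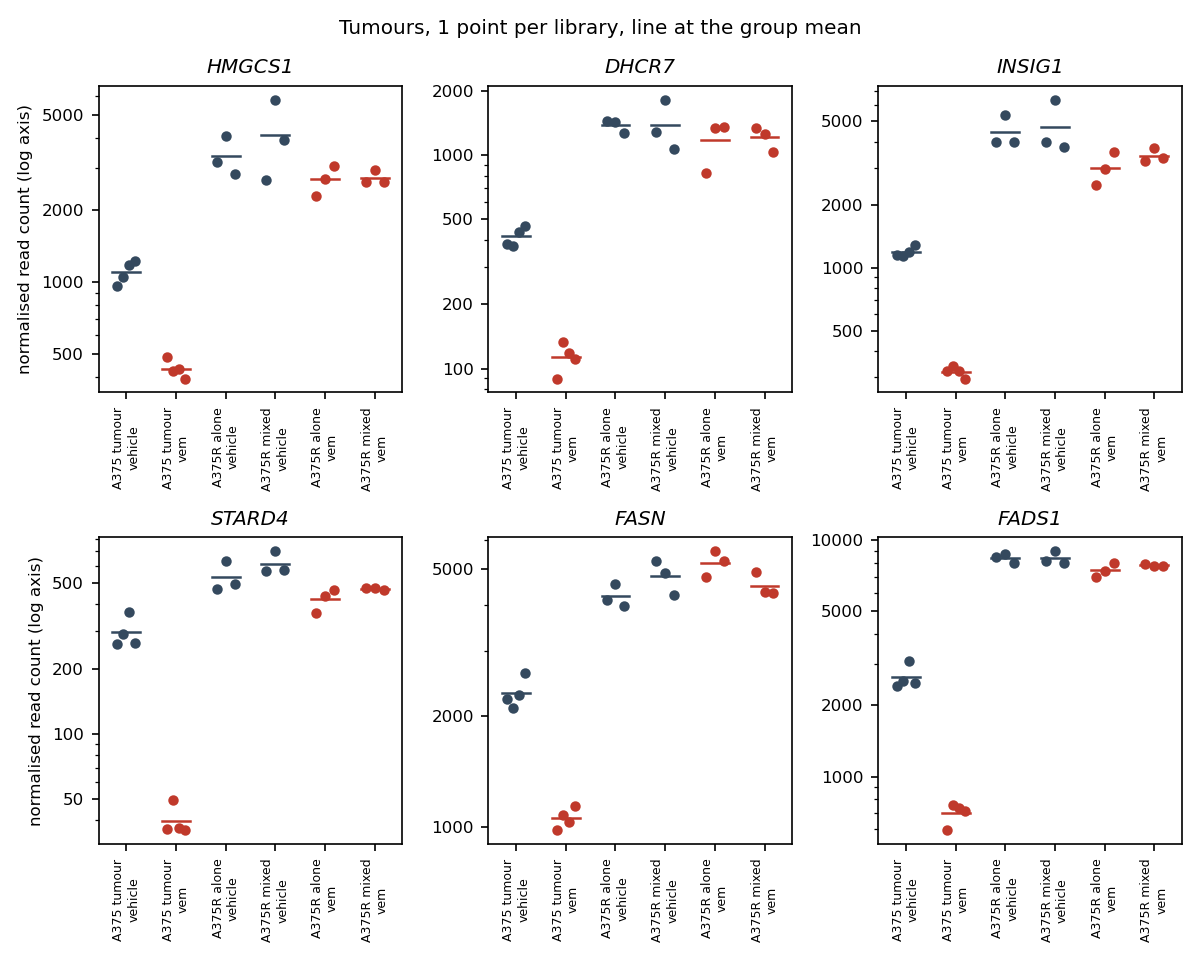
Normalised read counts (log axis) of 6 members in the 6 tumour groups (x axis), with 1 point per library and a line at the mean of the group. A375 and A375R tumours come from tables normalised separately. In A375 tumours the 4 vemurafenib points of each gene lie below the 4 vehicle points. In A375R tumours the drug and vehicle points of HMGCS1 and DHCR7 overlap in both kinds, while the drug points of INSIG1 and STARD4 lie below vehicle in both. Those of FADS1 lie below vehicle in mixed tumours only, and those of FASN lie above vehicle in A375R alone only. None of these A375R changes was called.

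In A375R tumours 30 of 31 members were not called in either kind by limma. HMGCS1 was 3183, 4087 and 2838 under vehicle and 2282, 2704 and 3068 under vemurafenib in A375R alone, and it went from 2664, 5782 and 3925 to 2618, 2945 and 2629 in the mixed tumours, overlapping in both, with changes of -0.32 ± 0.20 and -0.53 ± 0.20. INSIG1 went from 3978, 5372 and 3979 to 2471, 2952 and 3578 alone, and from 3993, 6324 and 3779 to 3226, 3713 and 3341 mixed. Its drug libraries lay below the vehicle libraries in both kinds, at a log2 change of -0.57 ± 0.18 (adjusted p = 0.11) and -0.42 ± 0.18 (adjusted p = 0.19), without passing. In A375R alone, INSIG1 was called in DESeq2 (-0.57, adjusted p = 0.036) and in limma with the compared groups alone (adjusted p = 0.046). In mixed tumours DESeq2 called HMGCS1 (-0.60, adjusted p = 0.049), IDI1 (-0.54, adjusted p = 0.025) and MVD (-0.42, adjusted p = 0.027), and MVD was also called in limma with the replicate block (adjusted p = 0.039) and after quantile normalisation (adjusted p = 0.041).

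FASN in A375R alone was 4125, 4560.4 and 3971 under vehicle and 4751, 5579 and 5246 under vemurafenib, with the drug libraries above, by 0.30 ± 0.11 (adjusted p = 0.14), and in the mixed tumours it went from 5272, 4865 and 4249.6 to 4903, 4320.2 and 4308, overlapping (-0.09 ± 0.11). SCD went from 11931, 13669.8 and 12316 to 6505, 8699 and 11076 alone and from 11639.8, 18077 and 10127 to 10627, 12067 and 12226 mixed, lower without overlap alone (-0.56 ± 0.19, adjusted p = 0.13) and overlapping mixed (-0.15 ± 0.19). Neither gene was called.

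SREBF1 in A375R alone was 781, 969 and 798 under vehicle and 605, 966 and 1010.4 under vemurafenib, and went from 1007, 1095 and 923 to 916, 855 and 1021 mixed, overlapping in both (-0.01 ± 0.16 and -0.12 ± 0.16). SREBF2 went from 5994, 5982 and 5871 to 4738, 4789 and 5515 alone, lower without overlap but not called (-0.25 ± 0.11, adjusted p = 0.25), and from 5351, 4469 and 5244 to 4273, 5574 and 5377 mixed, overlapping (0.01 ± 0.11). The changes of the remaining members, MYLIP aside, ran from -0.35 (INSIG2) to 0.32 (ACACA) alone and from -0.51 (IDI1) to 0.15 (SCAP) mixed.

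The member that was called, MYLIP, fell in both kinds of A375R tumour. It was 173, 246 and 239.5 under vehicle and 78.8, 85.0 and 128 under vemurafenib in A375R alone, and went from 303, 263 and 295 to 114, 206 and 160.1 mixed. No drug library reached a vehicle library in either, and the changes were -1.18 ± 0.22 (adjusted p = 0.028) and -0.88 ± 0.22 (adjusted p = 0.036). The interaction of MYLIP, mixed minus alone, was 0.31 and was not called (adjusted p = 0.63). The direction is opposite to that in the 4 lines, a difference that was not tested because the tables were normalised separately. Both calls were weak. Leaving out 1 library ended the A375R-alone call for 5 of 6 libraries, all but vemurafenib replicate 3. The adjusted p of those 5 ran from 0.069 to 0.18 in limma. The mixed call ended for 5 of 6, all but vemurafenib replicate 2, with adjusted p from 0.0501 to 0.14 in limma. The direction held in each. With no filter neither was called in limma (adjusted p = 0.061 alone and 0.058 mixed).

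The mixed tumours were also compared with A375R alone. Under vemurafenib 0 members were called, beside 0.0291% of all genes lower and 0.211% higher. An unadjusted p under 0.05 in limma was found for 3 members, beside 1703 of 13755 tested genes. Under vehicle ACACA was higher in the mixed tumours, at 1045, 981 and 863 against 709, 738 and 734, without overlap, by 0.40 ± 0.10 (adjusted p = 0.042), beside 1.37% of all genes lower and 1.93% higher. That call was lost without any of 5 of the 6 libraries, all but mixed vehicle replicate 3, with adjusted p from 0.066 to 0.21 in limma. In the interaction, which tests whether the drug response differed between the kinds, 0 members were called, beside 0.974% of all genes lower and 1.91% higher. There 3 members had an unadjusted p under 0.05 in limma, beside 2606 of 13755 tested genes. edgeR and DESeq2 also called 0 members in the comparison under vemurafenib and in the interaction, with 2 and 3, and 3 and 3, at an unadjusted p under 0.05.

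Other genes of the pathways were read from lists, whose counts stand beside the shares of all genes: 25.6% lower and 24.3% higher in A375 at 48 h, 37.3% and 36.0% in Colo800, 29.6% and 26.9% in UACC62, 24.0% and 22.1% in H3122, and 34.0% and 34.2% in A375 tumours. Of 11 other sterol synthesis genes, 4 were lower and 0 higher in A375 at 48 h, 6 and 4 in Colo800, 5 and 2 in UACC62, 4 and 1 in H3122, and 4 and 2 in A375 tumours, lower first. MSMO1, the C-4 methyl oxidase, fell, with a log2 change of -1.68 in Colo800, -2.36 in UACC62, -1.28 in H3122 and -1.17 in tumours. In A375R, 0 of the 11 were called in either kind.

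Of 11 genes of SREBP processing and degradation, 3 were lower and 0 higher in A375 at 48 h, 6 and 3 in Colo800, 4 and 2 in UACC62, 1 and 4 in H3122 and 4 and 3 in A375 tumours, with no shared direction. RNF145, a ligase that acts on SCAP, was the 1 gene of the list called at 6 h, at -0.74 ± 0.12 (adjusted p = 0.0065), lower in Colo800 at -1.09, and higher in A375R alone at 0.48. Of 33 other genes of fatty acid and glycerolipid synthesis, 30 to 32 of them tested, 7 were lower and 5 higher in A375 at 48 h, 14 and 8 in Colo800, 10 and 9 in UACC62, 8 and 6 in H3122, and 17 and 7 in A375 tumours. The shares lower were 23.3%, 45.2%, 32.3%, 25.0% and 56.7%, near those of all genes in A375, UACC62 and H3122. At 6 h, 2 genes of this list were lower and 1 higher. The higher one, named after its value was seen, was ACSL1, which also activates fatty acids, at 0.95 ± 0.21 (adjusted p = 0.027). ACSL3, which activates fatty acids with CoA, was already lower at 6 h, at -1.36 ± 0.21 (adjusted p = 0.0045), and fell, with a log2 change of -2.14 at 48 h and -2.36 in Colo800. ACSS2, which makes acetyl-CoA from acetate, was lower at 6 h, at -0.93 ± 0.16, and at a log2 change of -1.86 in UACC62 and -1.32 in A375 tumours.

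Of 9 LXR receptors, targets and efflux genes, 7 to 9 of them tested, 2 were higher and 1 lower in A375 at 48 h, 3 and 2 in Colo800, 3 and 2 in UACC62, 3 and 0 in H3122, and 4 and 2 in A375 tumours, higher first. APOE, which carries cholesterol out of cells, rose by 1.02 in Colo800 and 3.26 in UACC62, ABCG1, a sterol exporter, by 1.64 in H3122, and ABCA1, another exporter, by 1.67 in A375 tumours. Of 18 genes of lipid uptake, transport and storage, 17 or 18 of them tested, 4 were lower and 6 higher in A375 at 48 h, 8 and 8 in Colo800, 7 and 6 in UACC62, 7 and 2 in H3122, and 5 and 7 in A375 tumours, lower first. LRP8, a lipoprotein receptor of the family MYLIP acts on, fell, with a log2 change of -1.99 in A375, -2.55 in Colo800, -1.75 in H3122 and -2.04 in A375 tumours.

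Of 20 genes of fatty acid oxidation, which burns what the members build and of which 18 were tested, 9 were higher and 2 lower in A375 at 48 h, 11 and 4 in Colo800, 10 and 2 in UACC62, 6 and 3 in H3122, and 6 and 5 in A375 tumours, higher first. ACADS, a short-chain dehydrogenase, rose by 2.00 in A375, 1.21 in Colo800 and 1.31 in UACC62. The median change of the list was 0.30, 0.36, 0.35, -0.02 and 0.18 in those 5 comparisons, where the medians of the 31 members were -0.44, -1.05, -0.94, -0.91 and -0.69. The median of all tested genes lay between -0.02 and 0.01 in all 12 comparisons. The same 5 medians of the other sterol synthesis list were 0.13, -0.62, -0.22, -0.17 and 0.03, and those of the other fatty acid and glycerolipid list -0.07, -0.10, -0.20, -0.10 and -0.33.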

How the data were processed

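RNA sequencing libraries of 41 samples in 15 groups were read from 6 tables, one for each of the A375, Colo800, UACC62 and H3122 cultures, the A375 tumours and the A375R tumours. The deposited values are a normalised signal, gene read counts that the authors divided by a size factor for each library. Tools listed in the submitters' processing notes are DESeq 1.18.0, HTSeq 0.5.4 and STAR 2.3.0e, and the builds listed are mm9 and hg19, with no roles stated. The kit does not mark strand, so reads of overlapping antisense genes cannot be told apart. Dividing each library by its smallest step gave whole reads for 100% of values (tolerance 0.1 read), 8063754 to 42843612 reads per library. No pair of libraries in a group agreed within sampling noise (chi-square per degree of freedom of 1.30 or more). The lowest values were 1.30 in UACC62 vehicle and 1.75 and 1.77 in the Colo800 groups, close to sampling noise. In A375 culture they ran from 5.82 to 32.2.

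Genes with a table mean of 10 or more were tested with limma 3.58.1 (R 4.3.3) on log2(value + 1), with all groups of a table in the fit, intensity-dependent variance and Benjamini-Hochberg adjustment over all tested genes, at a threshold of 0.05. edgeR 4.0.16 and DESeq2 1.42.0 on the recovered reads, other pseudocounts and filters, quantile normalisation, a replicate block, the compared groups alone and leaving out each library were the alternatives. On those reads edgeR called 600 genes in A375 at 6 h, 6896 at 48 h, 9964 in Colo800, 7824 in UACC62, 6471 in H3122 and 9675 in A375 tumours. The fitting code was tested on simulated data. Tables were normalised separately, so groups were tested only within a table.

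The 31 members and the other gene lists were chosen with earlier results of these data known. Values in every library are given for HMGCS1, INSIG1, SREBF1, SREBF2, FASN and SCD, and for the 3 called members with the largest change in each direction per comparison of drug with vehicle. PMVK, TM7SF2, SREBF1, LPIN1 and MYLIP are also given in other groups, chosen after their values were seen. Of the other lists, genes among the 2 with the smallest adjusted p in a comparison are named. Equal replicate numbers were checked for pairing by the correlation of deviations from group means. In A375 culture it was 0.57, 0.31 and 0.57 between vehicle and 6 h and 0.44, 0.20 and 0.41 between 6 h and 48 h, read as signs of pairing. Between vehicle and 48 h it was 0.40, 0.03 and 0.32, weakest for replicate 2, and the same numbering would pair these groups too. The main fits left any pairing out, and the replicate block that uses it was an alternative. In A375 at 48 h against vehicle, 16 members were called without the block and 20 with it. Some genes are withheld and not reported here.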

Additional observations from a re-analysis of the deposited data

Results flagged for a closer look

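The 31 members were each checked in both groups of 4 libraries for a library far from the others, and 4 of the 62 checks found one, where chance gives about 1 in 20. Both groups are A375 tumours, and the smaller groups of the other tables were not checked in this way. IDI1 was 592 normalised reads in vehicle replicate 1, against 697 to 710.3 in the others. STARD4 was 49.7 in vemurafenib replicate 2, against 36.0 to 36.9. ACLY was 1451 in vemurafenib replicate 1, against 1141 to 1182. FADS2 was 122 in vemurafenib replicate 3, against 129.95 to 131.2. These calls remained without any 1 library.

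For 4 members, called log2 changes went in opposite directions in different cells, and the differences themselves were not tested because the tables were normalised separately. TM7SF2 changed by 1.08 in A375 at 48 h, 1.26 in UACC62 and -0.79 in H3122. SREBF1 changed by -1.60 in Colo800, -0.95 in H3122 and 0.32 in A375 tumours. MYLIP changed by 1.79 in A375 at 48 h, 0.84 in Colo800, 0.78 in UACC62, 0.71 in H3122, -1.18 in A375R alone and -0.88 in mixed A375R tumours. LPIN1 changed by 0.52 in Colo800, 0.55 in UACC62, -1.17 in H3122 and -0.46 in A375 tumours.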

How the results depend on the processing

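Of the called changes, 13 of 16 in A375 at 48 h, 12 of 17 at 48 h against 6 h, 25 of 28 in Colo800, 19 of 23 in UACC62, 25 of 28 in H3122 and 21 of 23 in A375 tumours kept their call and direction in every alternative, and 0 of 1 did in A375R alone, mixed, or mixed against alone under vehicle. SCD in Colo800 reversed with quantile normalisation, to 0.0035 (adjusted p = 0.95 in limma), where the median of all genes moved to 0.0999. The cause was not tested. Members called in A375R alone were 0 with no filter, 2 in DESeq2 and 2 with the compared groups alone. Over all genes those fits called 14, 755 and 533, against 109 in the main fit. In mixed A375R tumours the members called were 0 with no filter, 2 with quantile normalisation, 2 with the replicate block and 4 in DESeq2. Over all genes the calls there were 447, 458, 494 and 958, against 478 in the main fit. In mixed against alone under vehicle 0 members were called with the compared groups alone, where 540 genes were called against 454.

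Leaving out 1 library gave 0 to 0 calls in A375 at 6 h, 13 to 17 at 48 h, 13 to 19 at 48 h against 6 h, 21 to 26 in A375 tumours, 25 to 28 in H3122, 20 to 26 in UACC62, 27 to 29 in Colo800, 0 to 1 in A375R alone, 0 to 1 in mixed tumours, 0 to 1 in mixed against alone under vehicle, and 0 to 0 in both mixed against alone under vemurafenib and the interaction. Where a group was left with 1 library, it was assumed to vary like the other group.

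With the replicate block, calls were 0 in A375 at 6 h, 20 at 48 h with 16 kept (MVD at 0.58, adjusted p = 0.011, NSDHL, HSD17B7 and INSIG2 gained), 20 at 48 h against 6 h, 28 in Colo800, 24 in UACC62 (EBP gained, adjusted p = 0.016) and 23 in A375 tumours, and MVD was gained in mixed A375R tumours (adjusted p = 0.039). H3122 numbers correlated at -0.21, and 28 members were called with the block as numbered and 28 with the pairing crossed, an alternative chosen after seeing the data. Over all genes those blocks called 5381 and 8522. Depth limits low genes most: STARD4 in A375 tumours rested on about 36 to 50 normalised reads under drug.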
